A study of Mus musculus with 4 samples.

Results

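The NMDA receptor subunit genes of the mouse, *Grin1*, *Grin2a*, *Grin2b*, *Grin2c*, *Grin2d*, *Grin3a* and *Grin3b*, were taken by name from a table of 23420 gene symbols, and all 7 were found there. Their transcripts were compared between prefrontal cortex (PFC) punches from mice injected with *Ash1L* shRNA AAV and from control mice, which asks whether knockdown of the histone methyltransferase gene *Ash1l* moved them. Bulk RNA was sequenced for 2 control and 2 *Ash1L* shRNA samples of wild-type C57BL6/J mice, aged 6 to 8 weeks by the description of the series. The sample labels name the control virus GFP-AAV9, whereas the methods describe a scrambled shRNA AAV. The shRNA was driven by the U6 promoter, which is not restricted to neurons, in a GFP-tagged AAV vector injected into medial PFC, and tissue showing GFP fluorescence was punched out. The methods state that each sample was a pool of mice, while the series description counts 3 *Ash1L* shRNA and 2 control mice. Whether the 4 samples came from separate pools is not given for each label, so the p-values here measure only the spread between these samples.

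NMDA receptors are glutamate-gated cation channels that pass calcium and open only when glutamate binds while the membrane is depolarized enough to expel magnesium from the pore. Each receptor is an assembly of obligatory GluN1 subunits, encoded by *Grin1*, with GluN2 subunits (*Grin2a* to *Grin2d*) and in some cells GluN3 subunits (*Grin3a* and *Grin3b*). GluN1 and GluN3 bind the co-agonist glycine or D-serine, and GluN2 binds glutamate and sets the kinetics and magnesium block. In the cortex GluN2B predominates early and GluN2A joins it as synapses mature, so the balance of *Grin2a* and *Grin2b* is a familiar readout of postnatal development.

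Total counts ran from 14251190 in control sample 1 to 35764874 in control sample 2, with 27479339 and 20106708 in *Ash1L* shRNA samples 1 and 2. Levels are given below as CPM, in which each count is divided by the size of its library after TMM scaling, a correction for library composition. The targeted gene, *Ash1l*, stood at 245 and 290.1 CPM in control samples 1 and 2 and at 216 and 137 CPM in *Ash1L* shRNA samples 1 and 2. It was therefore lower in both knockdown samples, and further below the controls in sample 2. The fitted log2 fold change was -0.60 (SE 0.22, edgeR quasi-likelihood test, Benjamini-Hochberg adjusted p = 0.275). It was -0.97 without *Ash1L* shRNA sample 1 and -0.31 without *Ash1L* shRNA sample 2, and its unadjusted p stayed under 0.05 in the first of these fits but not in the second, nor without either control sample. The *Ash1l* locus shares 352 exonic bases with *Dap3* on the other strand, and the strand setting of the counting is not given in the sources used here. Markers of cortical excitatory neurons were present in all samples, with summed levels of 1706 and 1892 CPM in the controls and 1575 and 1275 CPM in the knockdown samples. Of the listed markers found in the count table, only *Gabra6*, listed for cerebellar granule cells, was at 0 in a sample.

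Of the 7 subunit genes, 4 (*Grin2a*, *Grin2b*, *Grin2c* and *Grin3a*) were DOWN in *Ash1L* shRNA samples, where DOWN means an unadjusted P under 0.05 and at least a 1.2-fold fall, the limits in the study's methods. This compares with 8.28% of the 16232 genes tested that were DOWN. None of the 7 was UP, against 8.61% of all genes. The largest difference was in *Grin2c*, at 0.483 of the control level, while *Grin2a*, *Grin2b* and *Grin3a* each stood near 0.75 of it, with fitted folds of 0.759, 0.746 and 0.745. *Grin1*, the gene of the obligatory subunit, differed by less than the spread between the control samples. After adjustment over all genes tested, 0 of the 7 passed 0.05 in the edgeR quasi-likelihood test, with adjusted p-values from 0.253 to 0.792, and only 0.00616% of all genes (1 gene) did. DESeq2 gave 420 genes under that limit, among them 1 member, *Grin2c*, with an adjusted p of 0.029. Without *Ash1L* shRNA sample 1, the log2 fold changes of *Grin2a*, *Grin2b* and *Grin2c* were -0.56, -0.64 and -1.60. They were -0.25, -0.24 and -0.66 without *Ash1L* shRNA sample 2. The median log2 fold change of the 7 was -0.40, beside -0.0027 over all genes tested. In 5 members the CPM of both knockdown samples lay under those of both controls and in 1 member above them, where 26.8% and 26.5% of all genes were so separated. Among the 5, *Grin2d* was all but tied, with 6.948 CPM in *Ash1L* shRNA sample 2 and 6.956 CPM in control sample 2.

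**Figure D1:**
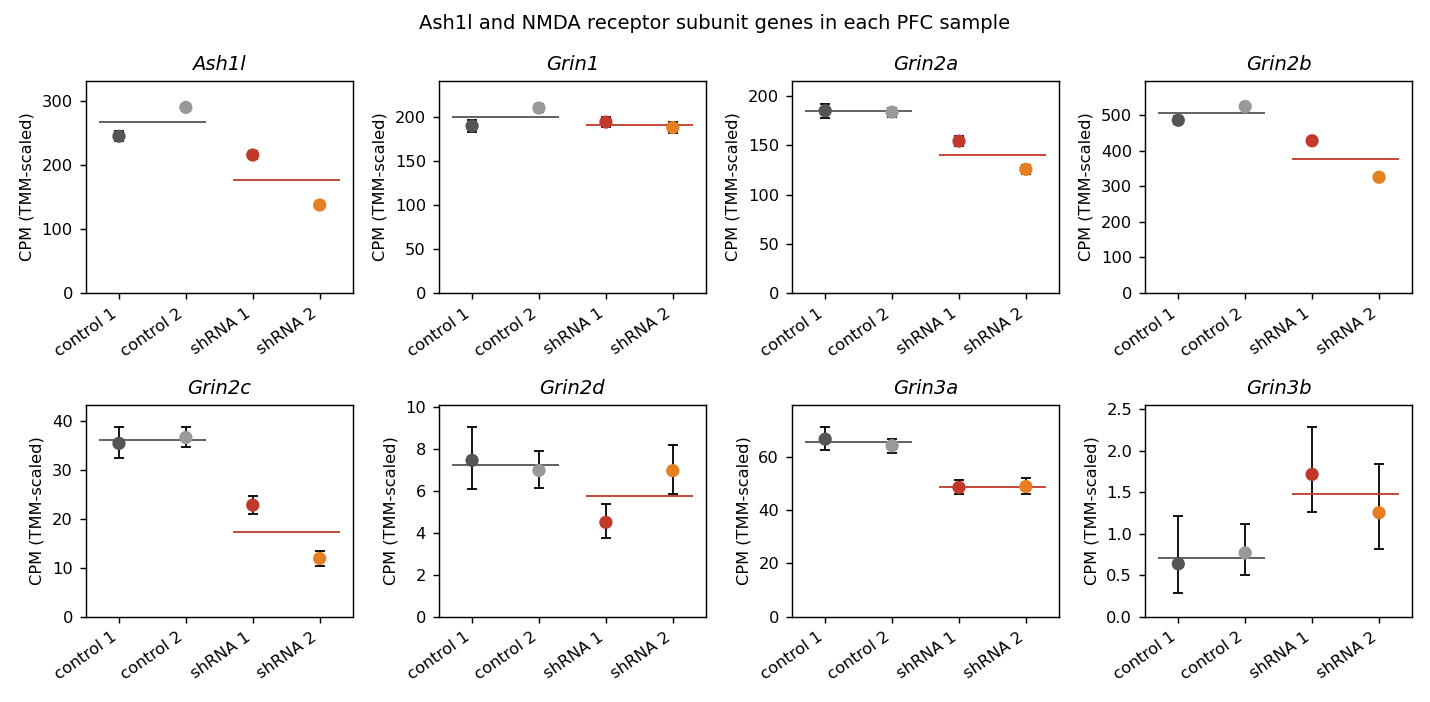
CPM after TMM scaling (vertical axes, each starting at 0) of *Ash1l* and the 7 NMDA receptor subunit genes in control samples 1 and 2 (grey) and *Ash1L* shRNA samples 1 and 2 (red and orange). Points are samples, vertical bars are 95% counting intervals (exact Poisson) and horizontal lines are group means, and *Grin2a*, *Grin2b*, *Grin2c* and *Grin3a* sit lower in both knockdown samples whereas *Grin1* overlaps.

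Promoter windows of 300 bases around the annotated start were found for 4 of the 7 members in RefSeq's table for GRCm38.p6, the assembly of mm10. *Grin2a*, *Grin2b* and *Grin3a* had no entry. The promoters of *Grin1* (chr2:25319138-25319437, minus strand) and *Grin2c* (chr11:115267194-115267493, minus strand) are shown because these genes had the smallest and one of the largest differences. The sequences run 5′ to 3′, with capitals for GC boxes (GGGCGG on either strand, overlaps included).
Grin1: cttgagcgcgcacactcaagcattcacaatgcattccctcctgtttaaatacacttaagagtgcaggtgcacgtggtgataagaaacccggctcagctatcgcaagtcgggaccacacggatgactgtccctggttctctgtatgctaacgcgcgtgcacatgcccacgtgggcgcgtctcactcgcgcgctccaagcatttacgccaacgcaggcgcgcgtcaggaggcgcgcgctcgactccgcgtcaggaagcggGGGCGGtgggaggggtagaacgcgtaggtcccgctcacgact
Grin2c: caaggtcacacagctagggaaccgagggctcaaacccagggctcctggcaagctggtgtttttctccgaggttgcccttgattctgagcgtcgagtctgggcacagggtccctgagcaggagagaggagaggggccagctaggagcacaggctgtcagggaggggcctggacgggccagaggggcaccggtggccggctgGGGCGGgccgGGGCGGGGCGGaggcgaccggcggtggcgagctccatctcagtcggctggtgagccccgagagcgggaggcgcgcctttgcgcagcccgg
The *Grin1* window held 33 CG dinucleotides and 1 GC box, and the *Grin2c* window held 22 and 3, beside a median of 7 CG dinucleotides over 32851 promoters of which 35.7% held a GC box. The windows of *Grin2d* and *Grin3b* held 12 and 3 CG dinucleotides and 0 GC boxes. The *Grin2d* window (chr7:45866632-45866931, minus strand) lies inside the gene as annotated from 45831883 to 45878378, so it is not at the outermost start. The core motif of NRF1, GCATGCGC, was in none of the 4 windows and in 2.71% of all promoters. These letter counts are a description of the windows, and no measurement here was made at a promoter.

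The obligatory subunit gene *Grin1* (ENSMUSG00000026959) lies on chromosome 2 of mm10 from 25291181 to 25319187, on the minus strand. Its level was 190.0 and 210.5 CPM in control samples 1 and 2 and 194 and 188 CPM in *Ash1L* shRNA samples 1 and 2. Both knockdown samples were close to control sample 1, and the groups overlapped. The group means were 200.2 ± 14.5 (SD, n = 2) and 191 ± 4.4 (SD, n = 2), and the log2 fold change of -0.07 had a 95% interval from -0.34 to 0.21 (edgeR quasi-likelihood test, adjusted p = 0.792). A fall of the size fitted for *Grin2a* or *Grin2b* was outside that interval. Exons of *Grin1* share 1307 bases with an antisense transcript, *Grin1os*, which had no row of its own in the count table.

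*Grin2a* (ENSMUSG00000059003, chromosome 16 from 9567898 to 9995560) encodes GluN2A, the subunit that gives fast receptor currents. It had 185 and 184 CPM in the controls and 154 and 126 CPM in *Ash1L* shRNA samples 1 and 2. The controls were almost equal, and sample 2 lay further below them than sample 1. Its log2 fold change was -0.40 with a 95% interval from -0.72 to -0.07. *Grin2b* (ENSMUSG00000030209, chromosome 6 from 135713233 to 136173511) encodes GluN2B, which gives slower currents and binds CaMKII. Its level was 486 and 525 CPM in the controls and 428 and 326 CPM in the knockdown samples. The order of the samples was again control, then knockdown sample 1, then knockdown sample 2. The log2 fold change of *Grin2b* was -0.42 with a 95% interval from -0.80 to -0.04. The adjusted p was 0.261 for *Grin2a* and 0.270 for *Grin2b* (the edgeR quasi-likelihood test).

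*Grin2c* (ENSMUSG00000020734, chromosome 11 from 115249169 to 115267243) encodes GluN2C, a subunit with weak magnesium block that is best known from cerebellar granule cells and is also transcribed in cortical astrocytes. It had 35.4 and 36.6 CPM in the controls against 22.8 and 11.9 CPM in *Ash1L* shRNA samples 1 and 2. The controls agreed within their counting intervals, both knockdown samples were lower, and sample 2 stood well below sample 1. The log2 fold change of -1.05 had a 95% interval from -1.78 to -0.32 (edgeR quasi-likelihood test, adjusted p = 0.260). Of the 8 astrocyte markers, 6 had negative values and were DOWN, where 8.28% of all genes were DOWN and 8.61% UP. The median log2 fold change of the 8 was -0.76. Their summed level was 1859 and 1858 CPM in the controls and 1382 and 1054 CPM in the knockdown samples. Relative to that sum, *Grin2c* was 0.23 and 0.78 lower in *Ash1L* shRNA samples 1 and 2 on the log2 scale than the control mean, and the part of astrocytes in its difference was not tested. In bulk tissue, fewer cells of a type and less RNA per cell cannot be told apart. Of 5 markers listed for cerebellar granule cells, *Gabra6* was at 0 in at least 1 sample, and the 5 summed to 14.7 to 17.3 CPM in controls and 15.4 to 24.5 CPM in knockdown samples, with 1 DOWN and 1 UP of the 3 tested.

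*Grin2d* (ENSMUSG00000002771, chromosome 7 from 45831883 to 45878378) encodes GluN2D, found mainly in interneurons of the adult cortex. It had only 105 to 244 counts per sample, which gave 7.44 and 6.96 CPM in the controls and 4.49 and 6.95 CPM in *Ash1L* shRNA samples 1 and 2. Sample 1 was low, whereas sample 2 was level with control sample 2. The 95% interval of its log2 fold change, from -1.01 to 0.34 around -0.33 included 0 (edgeR quasi-likelihood test, adjusted p = 0.560).

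*Grin3a* (ENSMUSG00000039579, chromosome 4 from 49661611 to 49845744) encodes GluN3A, a glycine-binding subunit that lowers calcium entry and is most abundant in the juvenile brain. Its level was 66.7 and 64.2 CPM in the controls and 48.6 and 48.9 CPM in the *Ash1L* shRNA samples. Both knockdown samples lay below both controls, and the counting intervals of the knockdown samples overlapped each other. Its log2 fold change of -0.43 had a standard error of 0.11 (edgeR quasi-likelihood test, adjusted p = 0.253). *Grin3b* (ENSMUSG00000035745, chromosome 10 from 79970715 to 79977190) encodes GluN3B, a subunit known mainly from motor neurons. It had 9 and 27 counts in the controls and 47 and 26 counts in the knockdown samples. That corresponds to 0.638 and 0.770 CPM in the controls and 1.72 and 1.25 CPM in *Ash1L* shRNA samples 1 and 2, higher in both, although the counting interval of control sample 1 reached 1.21 CPM. Its log2 fold change was 1.06 with a 95% interval from -0.02 to 2.13 (edgeR quasi-likelihood test, adjusted p = 0.300). Of its 3296 exonic bases, 1059 are shared with *Tmem259* on the opposite strand, and although the libraries were strand-specific the strand setting of the counting is not given, so reads of the more abundant *Tmem259* (60.3 to 75.0 CPM over the 4 samples) and of *Grin3b* may not be separable there. *Tmem259* itself overlapped between the groups, with a log2 fold change of 0.10.

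**Figure D2:**
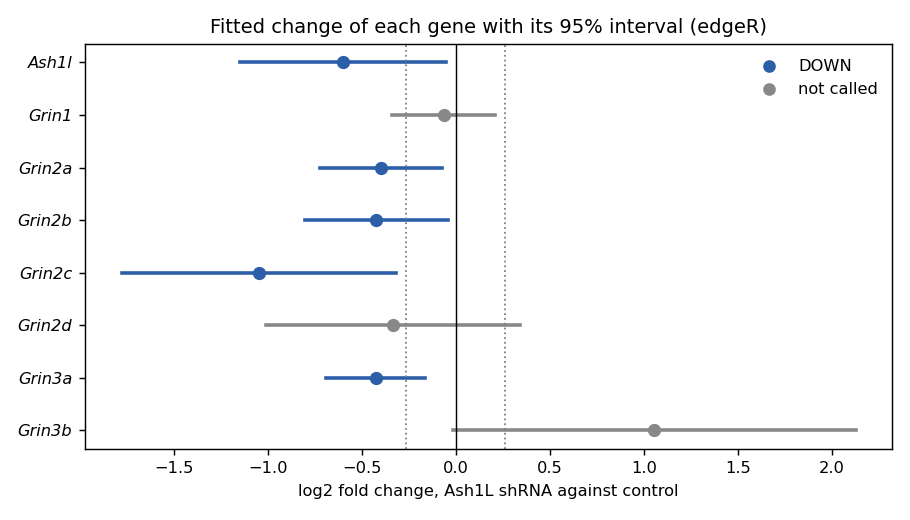
Log2 fold change of *Ash1L* shRNA against control (horizontal axis) for *Ash1l* and each subunit gene, with points for the edgeR estimate and bars for its 95% interval. Blue marks DOWN genes, grey marks genes not called, dotted lines mark 1.2-fold, and the *Grin1* interval from -0.34 to 0.21 crosses 0 whereas the *Grin2c* interval from -1.78 to -0.32 does not.

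Leaving out any single sample kept the sign of 6 members and turned that of *Grin1*, which lay near 0. The log2 fold changes of *Grin2a*, *Grin2b*, *Grin2c* and *Grin3a* then stayed negative, with weakest values of -0.25, -0.24, -0.66 and -0.39. Fewer members passed as DOWN without either control sample, where fewer genes of the whole table did too. Calls of members are therefore not compared between these fits. Without *Ash1L* shRNA sample 2, *Grin2d* stood at -0.67 and *Grin3b* at 1.26. Without *Ash1L* shRNA sample 1, *Grin2c* reached a log2 fold change of -1.60. For *Grin2b*, the unadjusted p was 0.054 with the replicate number as a block and 0.060 with an offset for exonic length (the edgeR quasi-likelihood test), so it was no longer DOWN in these fits.

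Ratios between subunit genes within a sample do not depend on library scaling. The ratio of *Grin2a* to *Grin2b*, taken from levels per kilobase of exon, was 0.528 and 0.485 in the controls and 0.4997 and 0.535 in *Ash1L* shRNA samples 1 and 2. The groups overlapped, with 1 knockdown sample on either side of the control mean. The difference of the mean log2 ratio was 0.03, less than the SD between controls of 0.09 (exact permutation test, two-sided p of 0.667). As raw counts, *Grin2a* made up 27.6% of *Grin2a* and *Grin2b* counts together in control sample 1 (exact 95% binomial interval 26.7 to 28.5) and 25.9% in control sample 2 (25.4 to 26.5). It made up 26.5% (25.8 to 27.2) and 27.8% (26.9 to 28.8) in the knockdown samples. These intervals cover counting error only.

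Against *Grin1*, by contrast, both of these genes stood lower in the knockdown. The per-kilobase ratio of *Grin2b* to *Grin1* was 0.999 and 0.973 in the controls and 0.859 and 0.675 in *Ash1L* shRNA samples 1 and 2. For *Grin2a* to *Grin1* it was 0.527 and 0.472 in the controls and 0.429 and 0.361 in the knockdown samples. The groups did not overlap in either ratio, and the mean log2 ratio differed by -0.37 for *Grin2b* and -0.34 for *Grin2a*. The ratio of *Grin2c* to *Grin1* differed by -1.07 and that of *Grin3a* to *Grin1* by -0.36, also without overlap, while *Grin2d* to *Grin1* overlapped with a difference of -0.30. The ratio of *Grin3b* to *Grin1* was 1.13 higher on the log2 scale, at few counts. Summed over the 4 GluN2 genes, the raw count ratio to *Grin1* was 3.76 and 3.57 in the controls and 3.13 and 2.50 in the knockdown samples, a log2 difference of -0.39. In the 6 ratios without overlap the exact permutation p was 0.333 two-sided, the smallest that 2 samples against 2 can give, and 0.444 after adjustment over the 8 ratios compared. The test therefore cannot call any of these ratios different. The GluN2 sum reuses genes of the other ratios. How many of all genes would lie apart in a ratio to *Grin1* was not computed, and 26.8% were lower without overlap by CPM alone. Without *Ash1L* shRNA sample 2 the difference from *Grin1* was -0.20 for *Grin2b*, -0.22 for *Grin2a*, -0.62 for *Grin2c* and -0.23 for the GluN2 sum, each nearer to 0 by over 1.5 times.

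**Figure D3:**
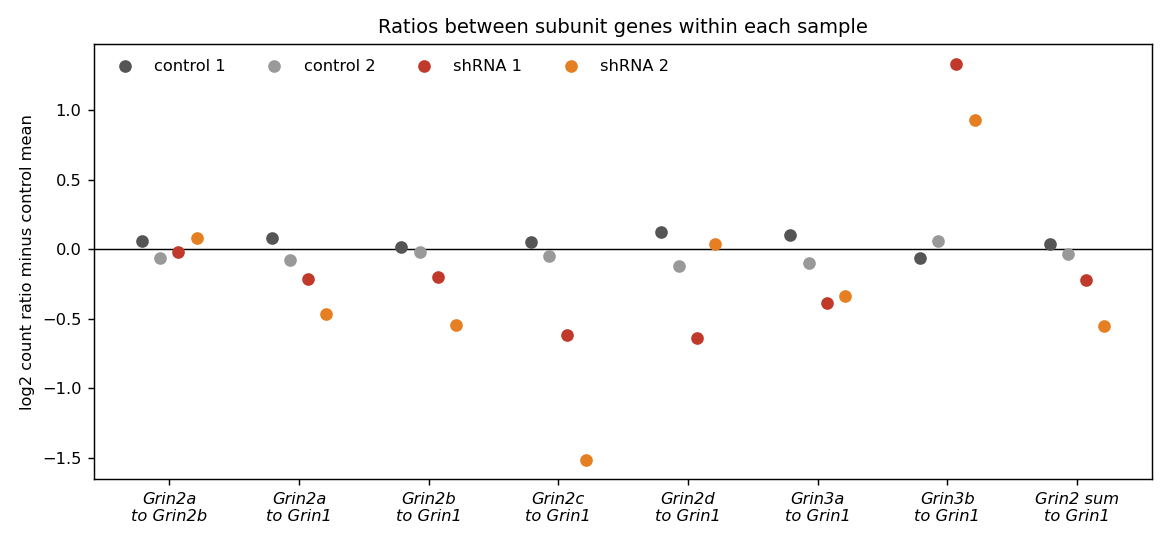
Log2 ratio of raw counts between subunit genes within each sample, minus the mean of the control samples (vertical axis), for 8 ratios. Points are control samples (grey) and *Ash1L* shRNA samples (red and orange), and *Grin2a* to *Grin2b* overlaps between the groups whereas *Grin2a*, *Grin2b*, *Grin2c* and *Grin3a* to *Grin1* lie below both controls.

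Levels of different genes were compared per kilobase of exon, using the union of annotated exons. With these lengths, *Grin1* in controls (20.6 ± 1.49 CPM per kb, SD, n = 2) and *Grin2b* (20.3 ± 1.11) were highest and did not differ beyond their spread. *Grin2a* followed at 10.3 ± 0.05, then *Grin2c* at 7.14 ± 0.17, *Grin3a* at 5.34 ± 0.14, *Grin2d* at 1.08 ± 0.05 and *Grin3b* at 0.214 ± 0.028. From *Grin2b* down, each step was larger than the SDs of the neighbours. In *Ash1L* shRNA samples *Grin1* (19.7 ± 0.45) lay above *Grin2b* (15.2 ± 2.92) in both samples. The mean of *Grin2c* (3.44 ± 1.53) was under that of *Grin3a* (3.97 ± 0.02), but the order changed in sample 2 only. *Grin2c* and *Grin3a* stood at 4.52 and 3.96 in *Ash1L* shRNA sample 1 and at 2.36 and 3.99 in sample 2. The levels of the 7 genes summed to 63.2 and 66.8 CPM per kb in the controls and to 55.6 and 47.3 in the knockdown samples. *Grin1* made up 31.0% and 32.5% of that sum in the controls and 36.1% and 41.0% in *Ash1L* shRNA samples 1 and 2, and *Grin2c* went from 11.1% and 10.9% to 8.13% and 4.98%. These shares depend on the length used, since the exon union of *Grin1* is 9700 bases and its longest annotated transcript 4276. With the longest transcript, the control share was 47.7% for *Grin1* and 21.4% for *Grin2b*, so the near-equal levels of these genes hold only for the exon union.

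**Figure D4:**
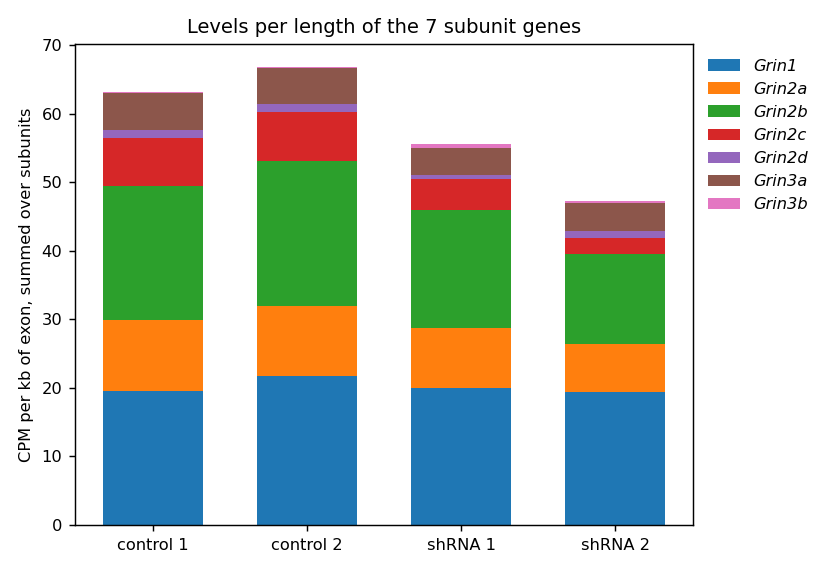
Stacked levels per length (CPM per kilobase of exon union, vertical axis from 0) of the 7 subunit genes in each of the 4 samples. The *Grin1* block is about equal in all samples, while the sum is 63.2 and 66.8 in the controls and 55.6 and 47.3 in *Ash1L* shRNA samples 1 and 2.

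Marker lists of the cell types in the punches were measured beside the subunits, where 8.28% of all genes tested were DOWN and 8.61% UP. All 8 excitatory neuron markers had negative log2 fold changes around a median of -0.40, of which 3 passed as DOWN. Their summed level stood 0.19 and 0.50 under the control mean on the log2 scale in *Ash1L* shRNA samples 1 and 2, next to 0.26 and 0.55 for *Grin2a* and 0.24 and 0.63 for *Grin2b*. These sums were paired with members after the values were seen. Divided by the excitatory marker sum, *Grin2a* overlapped between the groups, *Grin2b* differed by -0.09 on the log2 scale, and *Grin1* was 0.28 higher in the knockdown. Such ratios depend on the markers chosen. The pan-neuronal sum, by which no member was divided, stood at -0.10 and -0.26 against the control mean in *Ash1L* shRNA samples 1 and 2. Both values were nearer to the control mean than those of *Grin2a* and *Grin2b*. Of the 9 interneuron markers 6 had negative values, the median was -0.43, and *Pvalb*, *Sst* and *Lhx6*, named after their values were seen, were DOWN. The summed interneuron level was 918 and 853 CPM in the controls and 805 and 726 CPM in the knockdown samples. Divided by that sum, *Grin3a* was 0.21 lower in the knockdown without overlap and *Grin2d* overlapped. None of 8 pan-neuronal markers was DOWN in edgeR's test (0 had an unadjusted p under 0.05, and 0 an adjusted p under 0.05 in DESeq2), with sums of 7167 and 7185 CPM in the controls and 6690 and 6012 CPM in the knockdown samples. Microglia markers, 0 of 7 called, split the knockdown samples, with 921 CPM in sample 1 and 375 CPM in sample 2 against 724 and 748 CPM in the controls. The 7 oligodendrocyte markers (1 DOWN) and 5 endothelial markers (0 called) had medians of -0.26 and 0.06. Of 4 striatal neuron markers tested, 2 were UP and 1 was DOWN, at sums of only 37.3 to 70.4 CPM. The part of cell composition in the subunit differences was not tested.

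Genes that act with the receptor were described from 6 lists of 73 genes in all, of which 71 were tested. Of these, 22 were DOWN (31.0%, beside 8.28% of all genes) and 4 were UP, where 8.61% of all genes were UP. The median log2 fold change of the 71 was -0.15. In the edgeR quasi-likelihood test 0 of the 71 had an adjusted p under 0.05 and 26 had an unadjusted p under 0.05. DESeq2 gave 4 adjusted calls, among them *Kalrn*, *Slc1a3* and *Slc1a4*, and 420 over all genes. A fit blocked on replicate number left 13 DOWN and 1 UP, where 1020 and 1052 of all genes were DOWN and UP. The DOWN count fell without either control sample or *Ash1L* shRNA sample 2. It rose without *Ash1L* shRNA sample 1, and the count over all genes moved the same way each time.

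Among 14 genes for glutamate and co-agonist handling, 5 were DOWN (35.7%) and 3 were UP, beside 8.28% and 8.61% of all genes. The astrocytic glutamate transporter genes *Slc1a2* (GLT-1) and *Slc1a3* (GLAST) and glutamine synthetase, *Glul*, were DOWN, with log2 fold changes of -0.47, -0.94 and -0.81. *Slc1a3* had 661 and 670.4 CPM in the controls and 406 and 289 CPM in *Ash1L* shRNA samples 1 and 2. The other DOWN genes, named after their values were seen, were *Phgdh*, an enzyme of serine synthesis, at -0.49 and the amino acid transporter gene *Slc7a10* at -0.71. The transporter genes *Slc1a4* and *Slc1a1* were UP at 0.68 and 0.29, and *Slc1a4*, a carrier of neutral amino acids including serine, had 84.7 and 81.3 CPM in the controls and 117 and 149 CPM in the knockdown samples. The third UP gene was the glycine transporter gene *Slc6a9* at 0.35, also named after its value was seen. *Srr*, the D-serine synthesizing racemase, was not called at 0.12.

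Of 16 genes for scaffold and trafficking proteins that hold or deliver the receptor, 6 were DOWN (37.5%) and 0 were UP. Over all genes the shares were 8.28% and 8.61%. The most abundant of the 6 were *Dlgap1* at -0.35, *Dlg1* (SAP97) at -0.36, *Cask* at -0.33 and *Dlgap3* at -0.50, and *Lin7b* was lowest at -0.72. The kinesin gene *Kif17*, whose motor carries GluN2B vesicles, was highest at 0.39 and was not called. The postsynaptic scaffold gene *Dlg4* (PSD-95), named after its value was seen, was not called at -0.11. Of 16 kinase and phosphatase genes, 7 were DOWN (43.8%) and 1 was UP. *Camk2a*, the CaMKII subunit of excitatory neurons that docks on GluN2B, had 1200 and 1523 CPM in the controls and 1110 and 927 CPM in the knockdown samples, a log2 fold change of -0.42. *Ptk2b* (Pyk2), *Camk2g* and *Cdk5r1* (p35) were DOWN at -0.32, -0.45 and -0.48, and *Camk2d* was UP at 0.38.

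Of 10 genes for effectors of calcium entry, 2 were DOWN (20%, beside 8.28% of all genes), with *Rasgrf1* highest at 0.11. The 2 were *Kalrn*, an exchange factor for small GTPases in dendritic spines, at -0.51 and the nuclear kinase gene *Camk4* at -0.47. Of 11 transcriptional regulators tied to *Grin* genes, 2 were DOWN (18.2%), among them *Tbr1*, a cortical factor that activates *Grin2b*, at -0.76. *Tbr1* had 77.3 and 75.7 CPM in the controls and 57.4 and 32.6 CPM in *Ash1L* shRNA samples 1 and 2. *Rcor1*, a partner of the silencer REST, had the highest value of that list, 0.44, and was not called. All 4 AMPA receptor subunit genes had negative log2 fold changes, from -0.58 in *Gria3* to -0.22 in *Gria2*. In all 4 the knockdown samples lay under both controls, where 26.8% of all genes did. In edgeR's test 0 were DOWN, and the lowest unadjusted p was 0.0545. DESeq2, read here by adjusted p only, gave 0 under 0.05. The paper, which used DESeq2 with an unadjusted limit, counts *Gria3* among its downregulated genes. By qPCR it reports *Grin1*, *Gria1* and *Gria2* as largely unchanged and *Grin2a* and *Grin2b* as reduced.

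**Figure D5:**
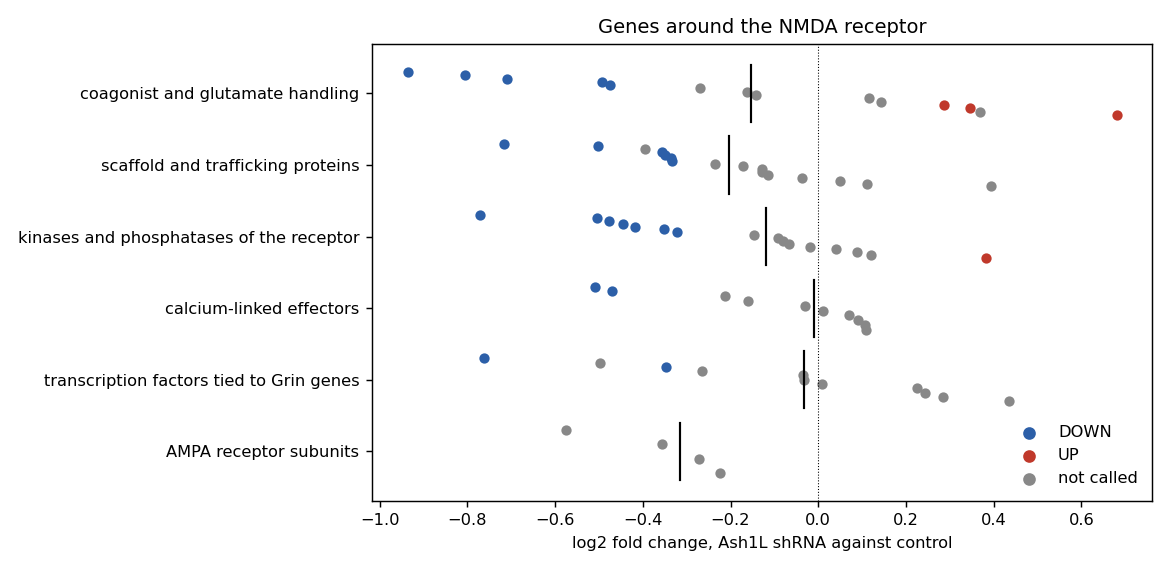
Log2 fold change of *Ash1L* shRNA against control (horizontal axis) for the tested genes of 6 lists around the NMDA receptor, 1 point per gene. Blue points are DOWN, red points are UP, grey points are not called and black lines are list medians, from -0.31 for AMPA receptor subunits to -0.01 for calcium-linked effectors.

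The genes whose counts followed a member most closely over the 4 samples were found by the Euclidean distance of log2 normalized counts, centred on the control mean, among 12456 genes. They were *Lpcat3*, *Pja2* and *Jak1* for *Grin1*, *Sms*, *Nelfcd* and *Mtmr12* for *Grin2a*, and *Rcbtb1*, *Fsd1l* and *Nalcn* for *Grin2b*, at distances from 0.0017 to 0.031. With only 4 samples such likeness is common, since 1825, 738 and 649 genes lay within a distance of 0.2 of *Grin1*, *Grin2a* and *Grin2b*.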

How the data were processed

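The counts deposited by the authors are raw read counts per gene symbol, 1 table per sample, made with STAR on mm10 and featureCounts from paired-end, strand-specific libraries. The labels also describe Cutadapt and TopHat2, whereas the table headers name STAR. Strand and multiple-mapping settings are not given in the sources used here. Members and lists were chosen with earlier results of these data known. The 16232 genes kept by filterByExpr were scaled by TMM and tested with edgeR 4.0.16 (R 4.3.3) by a robust quasi-likelihood F test, and p-values were adjusted by Benjamini-Hochberg over all of them. Standard errors are the log2 fold change over the square root of F. Only the edgeR test was checked on simulated counts, at changes larger than those of most members. The DESeq2 and permutation tests were not checked in this way. Normalized counts are counts scaled to the mean effective library, and profiles used genes with a mean of at least 100 of them. Gene lengths and positions came from GENCODE vM21 (mm10), with a length for all but 1031 tested genes. Ratios were compared by exact permutation in scipy 1.17.1. Alternatives were DESeq2 1.42.0, other scalings and filters, a replicate block, an offset for exonic length, and each sample left out.

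All 7 subunit genes, *Ash1l*, at most 4 abundant called genes of each list, the ends of each list and the 3 nearest profiles were named by rule, except that some list genes are not reported here by name. Replicates differed beyond counting error, with a chi-square per degree of freedom of 14.8 for control and 42.6 for *Ash1L* shRNA samples. No source says that same-numbered samples belong together.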

Additional observations from a re-analysis of the deposited data

How the results depend on the processing

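The differences of *Grin2a*, *Grin2c* and *Grin3a* were DOWN under every alternative that kept all 4 samples. For *Grin2b*, the log2 fold change was -0.44 with the replicate block, -0.40 with the exonic length offset and -0.42 with both, each with an unadjusted p above 0.05. *Grin3b* was UP with library-size scaling only, at 1.09, which made 1 member UP, and it had no value with at least 10 counts in every sample. Genes with an adjusted p under 0.05 numbered 420 in DESeq2, 34 without a filter beyond 1 count, 0 with the replicate block and 16 with the crossed replicate block, which was added after seeing the data because deviations of same-numbered samples correlated at -0.11. Pathway genes DOWN numbered 13 with the replicate block, and those UP numbered 2 in DESeq2, 1 with the block and 2 with the block and length offset. The replicate block changed no other call of a member. With the longest transcript as length, control shares were 47.7% for *Grin1*, 12.9% for *Grin2a* and 21.4% for *Grin2b*. The cause of these shifts was not tested.

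When single samples were left out, the lone sample of a group was assumed to vary like the others. Log2 fold changes ran from -0.13 to 0.0063 for *Grin1*, which changed sign without control sample 2, from -0.56 to -0.25 for *Grin2a*, -0.64 to -0.24 for *Grin2b*, -1.60 to -0.66 for *Grin2c*, -0.67 to -0.0512 for *Grin2d*, -0.46 to -0.39 for *Grin3a* and 0.80 to 1.26 for *Grin3b*. Log2 ratio differences ran from -0.0305 to 0.0906 for *Grin2a* to *Grin2b* and from -0.64 to 0.0367 for *Grin2d* to *Grin1*. The others kept their sign, from -0.47 to -0.22 for *Grin2a*, -0.55 to -0.20 for *Grin2b*, -1.51 to -0.62 for *Grin2c*, -0.46 to -0.26 for *Grin3a*, 0.93 to 1.33 for *Grin3b* and -0.55 to -0.23 for the GluN2 sum, each to *Grin1*. Counts ran from 0 to 2502 for adjusted calls, 306 to 2718 for DOWN, 423 to 2368 for UP, 1 to 4 for members DOWN, 0 to 1 for members UP, 4 to 30 for pathway genes DOWN and 1 to 4 for those UP.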
